A study of Mus musculus with 5 samples.

Results

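The chaperone genes of the array were compared between RNA that came down with SMN, the survival motor neuron protein, and RNA from a mock precipitation. Members were the genes with a probe set of their own whose symbol places them in the heat shock protein (Hspa, Hspb, Hspd1, Hspe1, Hsph1, Hsp90), DNAJ (Dnaja, Dnajb, Dnajc), chaperonin-containing TCP1 (CCT; Cct2 to Cct8 and Tcp1) or prefoldin (Pfdn) families, together with the co-chaperone gene Stip1. They numbered 86 of 19937 named genes, on 108 probe sets, and each gene is described by its brightest probe set. Where a gene has several probe sets, which genomic copy each one reads was not tested. Of the protein-coding genes with such symbols in a mouse RefSeq gene table, Hsp90ab1 and Hspa1b had no probe set of their own.

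FLAG-SMN IP is the RNA of an anti-FLAG precipitate from NSC-34 cells that contain a 3XFLAG-flSMN construct (3 arrays). Control IP is the RNA of the same precipitation from NSC-34 cells without a FLAG construct (2 arrays). NSC-34 is a mouse motor neuron-like cell line, and SMN is the protein that is reduced in spinal muscular atrophy. Both kinds of cell were differentiated in 1% serum, received doxycycline at 3 µg/ml for 3 days and were crosslinked once with ultraviolet light at 400 mJ/cm2. Nothing says that the replicates were separate cultures, so the tests measure only the spread between these arrays, which may be technical. Lysate RNA was not analysed here. Unequal RNA levels in the engineered and the parental cells therefore cannot be told apart from unequal precipitation.

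Values are log2 signals after robust multi-array averaging (RMA), and a difference is FLAG-SMN IP minus control IP. Over the tested probe sets the array medians lay between 5.25 and 5.39, and the medians of the probe sets presumed to be controls lay between 4.30 and 4.55. FLAG-SMN IP replicates 2 and 3 correlated at r = 0.989 across probe sets, while replicate 1 correlated with them at 0.964 and 0.968. Of the 9 motor neuron and neuronal markers, Mnx1 lay below the presumed control median on all 5 arrays and Chat on 1, so these defining genes were at or near background. The motor neuron genes Isl1 and Slc18a3 and the neuronal genes Tubb3, Snap25 and Nefl were above it on all 5. So were the fibroblast genes Col1a1 and Col1a2, the microglia genes Cx3cr1 and Csf1r, the astrocyte gene Aldh1l1 and the oligodendrocyte gene Mbp. The other measured markers of those 4 cell types were below it on at least 1 array. Lying above it therefore does not by itself mark a neuronal cell. The mean of the 9 markers spanned 5.43 to 6.16 in FLAG-SMN IP and 6.17 to 6.37 in control IP. Their differences were 2 positive and 7 negative. Snap25 (-2.14, limma adjusted p = 0.131) and Map2 (-1.09, limma adjusted p = 0.209) were the furthest below, each without overlap of the groups. Markers of other cell types averaged 4.31 to 4.35 in FLAG-SMN IP and 4.18 to 4.46 in control IP for 4 of 4 astrocyte genes, 4.83 to 4.89 and 4.67 to 5.15 for 2 of 3 oligodendrocyte genes, 4.37 to 4.58 and 4.19 to 4.53 for 4 of 4 fibroblast genes, and 4.59 to 4.95 and 4.60 to 4.81 for 3 of 3 microglia genes. RMA values have no zero, and the part of these markers in the results was not tested.

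Chaperones are proteins that help other proteins fold. HSP70 proteins bind exposed hydrophobic stretches and are set to work by DNAJ proteins, which stimulate their ATPase; Stip1 passes clients from HSP70 to HSP90. Prefoldin hands newly made actin and tubulin chains to the CCT ring, which folds them. HSP60 with its lid HSP10 folds proteins in mitochondria. Small HSPs hold unfolded proteins without ATP, and mutations in several of them cause motor neuropathies in humans. Heat shock factor 1 induces many of the cytosolic members under stress, while the unfolded protein response induces those of the endoplasmic reticulum (ER).

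None of the 86 chaperone genes passed the adjusted threshold of 0.05 in either direction (limma, Benjamini-Hochberg over 28187 probe sets; adjusted p from 0.198 to 0.999). On the whole array 9 of the probe sets passed (0.0319%), and over the brightest probe sets of all genes 1 passed above the control (0.00502%) and 5 below it (0.0251%). At an unadjusted p under 0.05, 5 members lay above the control (5.81%, against 3.25% of all genes) and 6 below it (6.98%, against 7.21%). The 5 were Cct4, Pfdn1, Hspb2, Dnajb1 and Dnajc4. The 6 were Hspb8, Hspa12b, Dnajc6, Hspb6, Dnajc16 and Dnajb9. Without FLAG-SMN IP replicate 1, 76 genes passed the adjusted threshold above the control (0.381%) and 154 below it (0.772%), and again 0 members. The count of members above the control at an unadjusted p under 0.05 was 3 without FLAG-SMN IP replicate 3, without control IP replicate 1 or without control IP replicate 2, and the count below it was 3 without control IP replicate 2.

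The median difference of the members was 0.09 on the log2 scale, against 0.0019 over all genes, with 53 positive and 33 negative. The range ran from -0.91 for Hspb6 to 1.05 for Pfdn1, and Pfdn1 was the only member at least 1 log2 unit apart (1.16% of members, against 2.57% of all genes). For 55 members the 95% confidence interval of the difference lay wholly within 1 log2 unit of 0, which puts a 2-fold difference outside it; for the other 31 the interval reached that size. All FLAG-SMN arrays lay above both control arrays at 16 members (18.6%, against 11.0% of all genes) and below both at 9 (10.5%, against 14.8%). Without FLAG-SMN IP replicate 1 the members' median was 0.0047, and without control IP replicate 1 it was 0.017.

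**Figure D1:**
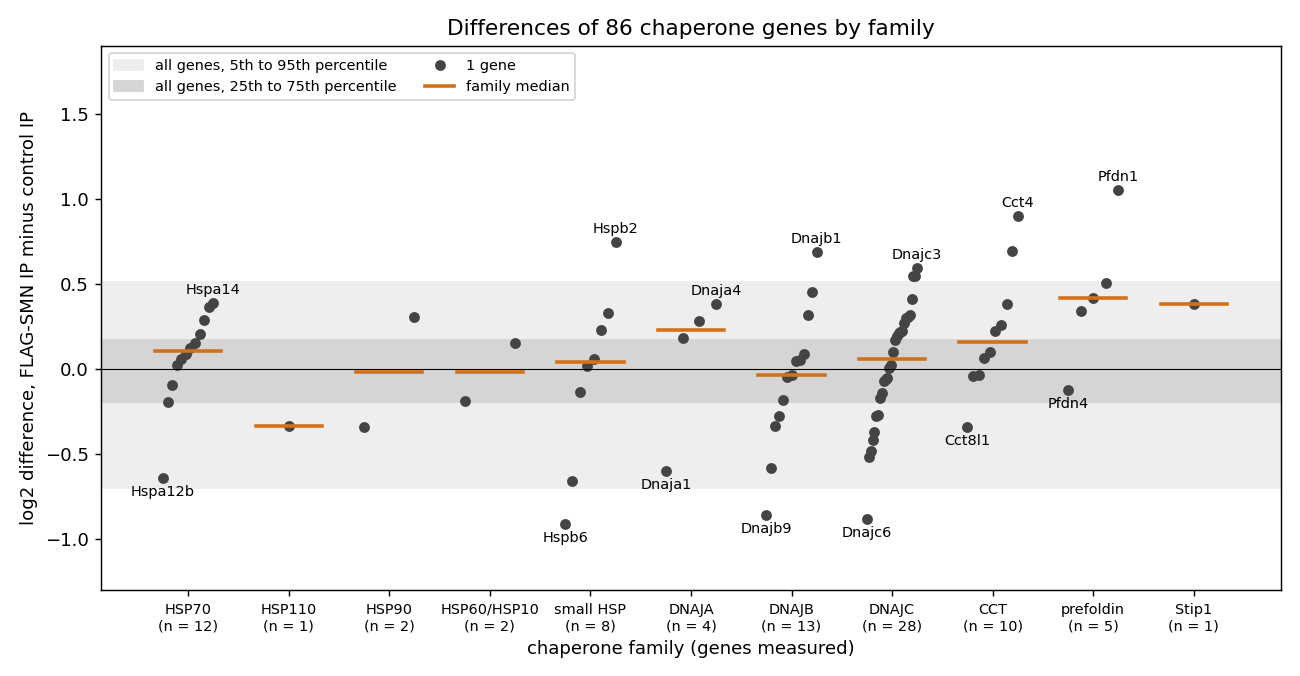
Each point is the log2 difference (FLAG-SMN IP minus control IP, vertical axis) of 1 chaperone gene, grouped by family on the horizontal axis, with family medians as orange lines and the spread of all genes as grey bands. Most points lie inside the band of the 5th to 95th percentile of all genes, -0.70 to 0.51, and the prefoldin median of 0.42 is the highest among families of more than 1 gene.

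The CCT ring is built from 8 related subunits, Tcp1 and the products of Cct2, Cct3, Cct4, Cct5, Cct6a, Cct7 and Cct8, which fold actin and tubulin together. Of these 8 genes, 6 had a positive and 2 a negative difference, with a median of 0.24; it was 0.12 without control IP replicate 1 and 0.35 without control IP replicate 2. Cct4 had log2 signals of 10.54, 10.21 and 10.51 in FLAG-SMN IP, against 9.39 and 9.64 in control IP. The groups were apart by more than their own spread. Its mean of 10.42 ± 0.18 (SD, n = 3) stood against 9.52 ± 0.18 (SD, n = 2), a difference of 0.90 (SE 0.20; 1.87-fold higher; 95% confidence interval 0.43 to 1.38; limma adjusted p = 0.198). This was the smallest adjusted p of all members, and the difference stayed between 0.78 and 1.03 when any 1 array was left out.

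The other ring subunits lay closer to the control. Cct8 had signals of 10.65, 9.49 and 9.57 in FLAG-SMN IP and 8.99 and 9.42 in control IP, a difference of 0.69 (SE 0.38; limma adjusted p = 0.623). Its groups did not overlap, but FLAG-SMN IP replicate 1 stood 1.12 above the mean of replicates 2 and 3. Tcp1 likewise had 11.17 in that replicate beside 10.03 and 10.43, against 9.96 and 10.37 in control IP (difference 0.38, adjusted p = 0.852). Cct5 gave 10.78, 10.56 and 10.92 in FLAG-SMN IP and 10.43 and 10.55 in control IP (difference 0.26, 95% confidence interval -0.19 to 0.72). The groups of Cct5 were separated by a margin smaller than the spread inside either one. Cct7 (0.22), Cct3 (0.10), Cct2 (-0.035) and Cct6a (-0.039) had overlapping groups, with adjusted p from 0.864 to 0.995. Subunits of 1 complex therefore had differences from -0.039 to 0.90. Of the other Cct genes measured, Cct8l1 lay below the presumed control median on all 5 arrays and Cct6b on 3, so their differences (-0.34 and 0.068) carry little information.

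Prefoldin is a jellyfish-shaped complex of 6 subunits, of which 5 (Pfdn1, Pfdn2, Pfdn4, Pfdn5 and Pfdn6) carry the Pfdn symbol. The family's median difference was 0.42, with 4 positive and 1 negative. Pfdn1 had signals of 9.13, 8.40 and 8.36 in FLAG-SMN IP, against 7.97 and 7.17 in control IP. All 3 FLAG-SMN arrays lay above both controls, while the control arrays were 0.80 apart. The means were 8.63 ± 0.44 (SD, n = 3) and 7.57 ± 0.57 (SD, n = 2), a difference of 1.05 (SE 0.34; 2.08-fold higher; 95% confidence interval 0.25 to 1.86; limma adjusted p = 0.330), which ran from 0.65 to 1.46 over the 5 fits with 1 array left out.

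The remaining prefoldin subunits were less separated. Pfdn5 had signals of 10.52, 10.12 and 9.99 in FLAG-SMN IP and 9.86 and 9.55 in control IP (difference 0.50, SE 0.23; limma adjusted p = 0.524). Pfdn6 had 9.39, 9.44 and 9.50 in FLAG-SMN IP and 9.24 and 8.98 in control IP (difference 0.34, SE 0.18; limma adjusted p = 0.610). In both the FLAG-SMN arrays lay above the controls, and for Pfdn6 the FLAG-SMN arrays were the tighter group. Pfdn2 overlapped, at 11.11, 9.78 and 9.75 in FLAG-SMN IP and 10.11 and 9.48 in control IP, since only replicate 1 stood clear (difference 0.42, adjusted p = 0.886). Pfdn4 was the member with the opposite sign, at 7.47, 7.11 and 7.35 in FLAG-SMN IP and 7.51 and 7.36 in control IP (difference -0.12). Vbp1, which encodes the remaining subunit and is not named as a Pfdn gene, gave 0.24 (SE 0.24; adjusted p = 0.878). The prefoldin median depended on the control arrays: it was 0.66 without control IP replicate 1 and 0.21 without control IP replicate 2.

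**Figure D2:**
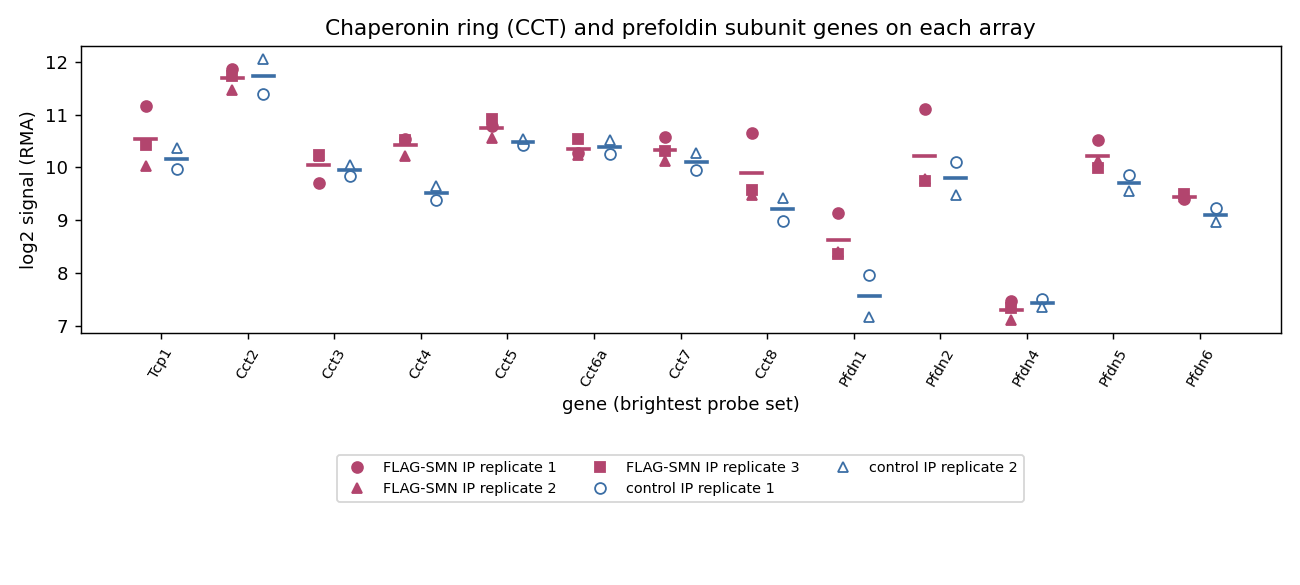
Log2 signal (vertical axis) of 8 CCT ring genes and 5 prefoldin genes (horizontal axis) on every array, FLAG-SMN IP as filled symbols and control IP as open symbols, with horizontal lines at the group means. Cct4 and Pfdn1 show separated groups with differences of 0.90 and 1.05, while FLAG-SMN IP replicate 1 stands above its own group at Cct8, Tcp1 and Pfdn2.

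The HSP70 family held 12 measured genes with a median difference of 0.11, 9 positive and 3 negative, and it was -0.015 without control IP replicate 1. Hspa8 encodes the constitutive cytosolic HSP70, the ATPase that strips clathrin from vesicles. It had signals of 12.67, 12.26 and 12.46 in FLAG-SMN IP and 12.31 and 12.36 in control IP. These groups overlapped, and the difference of 0.13 had a 95% confidence interval of -0.34 to 0.59. Hspa5, the ER member also called BiP, had 11.15, 10.84 and 11.32 in FLAG-SMN IP and 10.81 and 11.34 in control IP (difference 0.026, interval -0.55 to 0.60). Hspa9, the mitochondrial member, gave a difference of 0.057 (interval -0.42 to 0.53). At the brightest probe set of each of these housekeeping HSP70 genes a 2-fold difference lay outside the interval. Stress-inducible Hspa1a, which shares most of its sequence with Hspa1b, had 6.23, 5.97 and 5.76 in FLAG-SMN IP and 6.01 and 5.65 in control IP (difference 0.16, adjusted p = 0.933).

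Hspa12b, a distant HSP70 relative known from endothelial cells, was the family's member furthest below the control. It had signals of 5.28, 5.42 and 5.57 in FLAG-SMN IP, against 6.02 and 6.10 in control IP. The groups did not overlap, at means of 5.42 ± 0.14 (SD, n = 3) and 6.06 ± 0.055 (SD, n = 2), a difference of -0.64 (SE 0.18; limma adjusted p = 0.281). Hspa14, a ribosome-associated HSP70, lay on the other side, at 7.70, 7.66 and 7.63 in FLAG-SMN IP and 7.21 and 7.33 in control IP (difference 0.39, SE 0.17; limma adjusted p = 0.499). Its FLAG-SMN arrays lay closer together than the 2 controls did. Hspa1l (0.36), Hspa12a (0.29), Hspa4l (0.21), Hspa13 (0.091), Hspa2 (-0.095) and Hspa4 (-0.19) had overlapping groups, with adjusted p from 0.699 to 0.977. Hsph1, the HSP110 nucleotide exchange factor that resets HSP70, had 8.67, 8.60 and 8.67 in FLAG-SMN IP and 8.92 and 9.04 in control IP. Its groups did not overlap, yet the difference was only -0.33 (SE 0.17; adjusted p = 0.587).

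Hspa8 alone was read by 3 probe sets, and they did not give 1 value. Their differences were 0.13, 0.45 and 0.72 from the brightest to the dimmest, all positive, and the groups overlapped only at the brightest. The 2 dimmer ones had SEs of 0.18 and 0.32 and limma adjusted p of 0.464 and 0.516. Processed copies of Hspa8 in the genome are near-identical, and which copy a probe set reads was not tested. The introns of Hspa8 carry box C/D small nucleolar RNAs, and Snord14e, which lies inside the gene in the RefSeq table and has a probe set of its own, had signals of 8.63, 8.42 and 9.18 in FLAG-SMN IP against 6.94 and 7.00 in control IP (difference 1.77, SE 0.26; limma adjusted p = 0.0998). The other measured small RNA inside a member, Snora20 in Tcp1, had 5.72, 7.24 and 6.93 in FLAG-SMN IP and 6.75 and 6.09 in control IP, with overlapping groups (difference 0.21, SE 0.46; limma adjusted p = 0.968). A further pair of probe sets is annotated to Hspa8 together with 2 other such RNAs, so they name no single gene; they were picked out after their values were seen. The first had 10.94, 10.10 and 10.58 in FLAG-SMN IP against 7.47 and 8.25 in control IP (difference 2.68), and the second 8.54, 7.94 and 8.18 against 6.11 and 6.29 (difference 2.02), each with limma adjusted p = 0.0853. The probe sets annotated to Snord14e or to Hspa8 with small nucleolar RNAs were further from the control than those for Hspa8 alone. None passed the adjusted threshold, and the difference between these kinds of probe set was not tested. Since the copy read is not known, the probe sets for Hspa8 alone may not all belong to this locus.

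**Figure D3:**
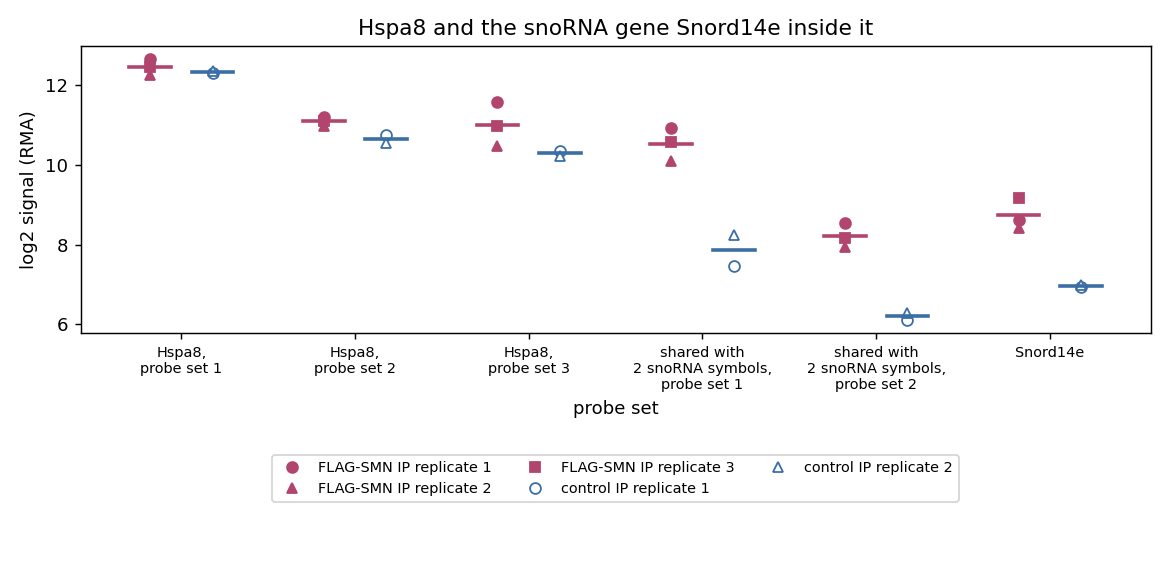
Log2 signal (vertical axis) on each array of 3 probe sets for Hspa8 alone, 2 annotated to Hspa8 with small nucleolar RNAs, and Snord14e (horizontal axis), FLAG-SMN IP filled and control IP open, with lines at the group means. The differences are 0.13, 0.45 and 0.72 for Hspa8 alone, and 2.68, 2.02 and 1.77 for the others.

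The genes measured with an Hsp90 symbol were Hsp90aa1, the inducible cytosolic form, and Hsp90b1, the ER form GRP94. Trap1 has another symbol and is counted below with the mitochondrial chaperones. Hsp90aa1 had signals of 10.32, 10.11 and 10.30 in FLAG-SMN IP and 10.30 and 10.87 in control IP (difference -0.34, SE 0.23; adjusted p = 0.738), and its 3 probe sets were all negative, from -0.64 to -0.21. Hsp90b1 had 11.28, 10.20 and 10.56 in FLAG-SMN IP and 10.01 and 10.74 in control IP (difference 0.31, adjusted p = 0.910). Both groups of Hsp90b1 spread over more than its difference. Stip1, which bridges HSP70 and HSP90, had 10.25, 9.81 and 10.20 in FLAG-SMN IP and 9.47 and 9.94 in control IP (difference 0.38, SE 0.23; adjusted p = 0.697).

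Hspd1 (HSP60) and Hspe1 (HSP10) stand head to head in the genome and share 1 promoter, and this is printed because it holds the binding motif of heat shock factor 1 for both genes at once. The motif searched was GAANNTTCNNGAA on both strands, 3 alternating units, in RefSeq windows (GRCm38.p6) from 250 bases before to 50 after each annotated start. It was found at 4 of 71 chaperone genes with such a window (5.63%), against 0.662% of all 27025 genes, which is a description and no binding site. Capitals mark the matches, of which 2 overlap at the shared promoter. The first 2 sequences are the same segment, chr1:55088051-55088084, read from its minus strand for Hspd1 and its plus strand for Hspe1; the others are chr5:149636280-149636308 on the minus strand for Hsph1 and chr5:29735844-29735872 on the plus strand for Dnajb6.
Hspd1: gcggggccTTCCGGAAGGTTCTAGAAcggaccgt
Hspe1: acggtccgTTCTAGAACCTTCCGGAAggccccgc
Hsph1: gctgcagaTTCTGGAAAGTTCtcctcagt
Dnajb6: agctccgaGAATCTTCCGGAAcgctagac

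The genes with this motif did not share a direction. Hspd1 had signals of 9.94, 9.35 and 9.68 in FLAG-SMN IP and 9.80 and 9.89 in control IP (difference -0.19, 95% confidence interval -0.72 to 0.35), negative at both of its probe sets. Hspe1 had 11.59, 11.39 and 11.50 in FLAG-SMN IP and 11.35 and 11.33 in control IP (difference 0.15, interval -0.26 to 0.57). At these brightest probe sets the groups of Hspe1 did not overlap and those of Hspd1 did, and both intervals included 0. At the second probe set of Hspe1 the groups overlapped (difference 0.065), as they did at that of Hspd1 (difference -0.29). Which genomic copy each of these probe sets reads was not tested, so the values may not all come from the genes at the shared promoter. Hsph1 was at -0.33, as given above, and Dnajb6 at 0.45, so the 4 differences were 2 positive and 2 negative with a median of -0.017. The value of Dnajb6 rested on FLAG-SMN IP replicate 1 and was -0.082 without that array. Brighter probe sets annotated to Dnajb6 together with Gm4247 gave -0.20, -0.43 and -0.031, with overlapping groups. The wider list of heat-inducible cytosolic chaperones, 12 of 14 genes measured, had a median of 0.055, with 7 positive and 5 negative, 1 above (Dnajb1, beside 3.25% of all genes) and 0 below the control (7.21% of all genes) at an unadjusted p under 0.05, and 0 past the adjusted threshold; the median was -0.088 without FLAG-SMN IP replicate 1 and -0.059 without control IP replicate 1.

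The small HSPs held members well to either side of the control, with 5 positive and 3 negative differences around a median of 0.041, which was -0.11 without FLAG-SMN IP replicate 2 and -0.019 without FLAG-SMN IP replicate 3. Hspb8 encodes the partner of Bag3 in chaperone-assisted autophagy and is mutated in human distal motor neuropathy. It had signals of 9.18, 8.97 and 9.18 in FLAG-SMN IP, against 9.75 and 9.78 in control IP. The groups did not overlap, and the means of 9.11 ± 0.12 (SD, n = 3) and 9.77 ± 0.019 (SD, n = 2) differed by -0.66 (SE 0.18; 1.58-fold lower; 95% confidence interval -1.08 to -0.24; limma adjusted p = 0.254). The difference stayed between -0.69 and -0.59 when any 1 array was left out. Hspb6, known for relaxing smooth muscle, had 6.71, 7.58 and 6.74 in FLAG-SMN IP and 8.01 and 7.82 in control IP, a difference of -0.91 (SE 0.30; limma adjusted p = 0.341). All its FLAG-SMN arrays lay below the controls, although replicate 2 came close to one of them.

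Hspb2, a muscle-enriched member, had the opposite sign. Its signals were 6.38, 7.04 and 6.39 in FLAG-SMN IP and 6.05 and 5.67 in control IP, without overlap (difference 0.75, SE 0.27; 1.68-fold higher; limma adjusted p = 0.389). Hspb1 (HSP27), mutated in human motor neuropathy, had 6.85, 8.24 and 8.28 in FLAG-SMN IP and 7.59 and 7.87 in control IP. FLAG-SMN IP replicate 1 lay below both controls and replicates 2 and 3 above them, so the difference of 0.061 averages opposite deviations; it was 0.53 without that array, and the second probe set of Hspb1 showed the same order. Hspb11, now placed among proteins of ciliary transport, had 6.34, 7.34 and 7.44 in FLAG-SMN IP, against 6.65 and 6.76 in control IP. This repeated the order seen at Hspb1. Hspb3, another human motor neuropathy gene, gave -0.13 (95% confidence interval -0.56 to 0.30), and Hspb9 and Hspb7 gave 0.23 and 0.021, with adjusted p of 0.850 and 0.997.

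**Figure D4:**
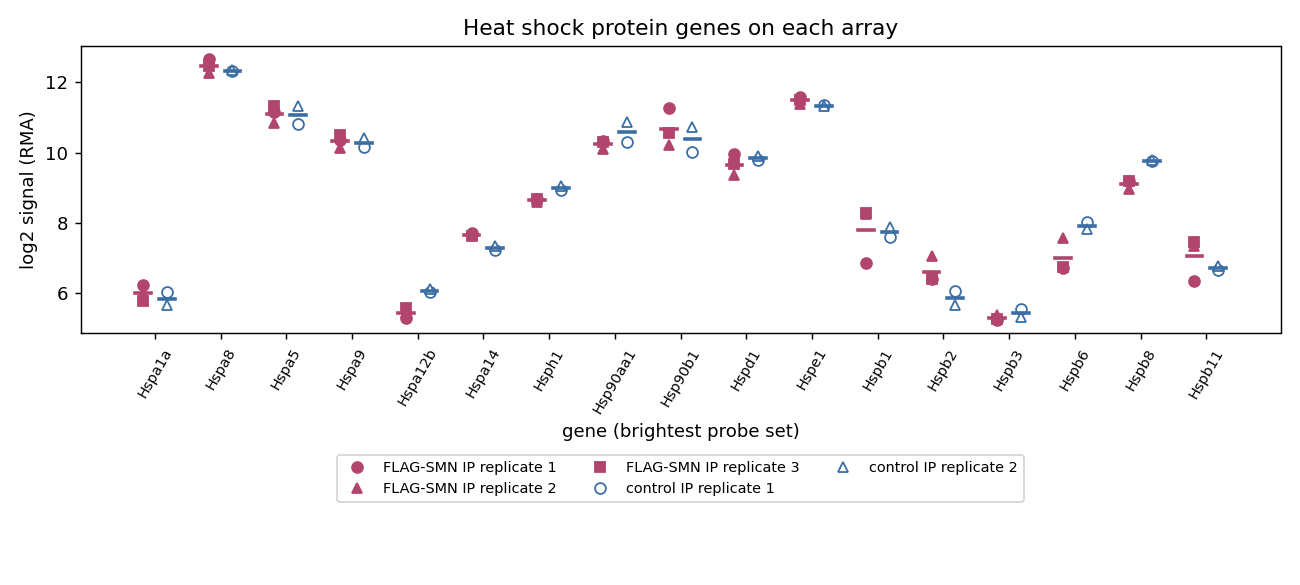
Log2 signal (vertical axis) of 17 heat shock protein genes (horizontal axis) on each array, FLAG-SMN IP as filled and control IP as open symbols, with horizontal lines at the group means. Hspa12b, Hspb6 and Hspb8 lie below the controls on every FLAG-SMN array and Hspb2 above them, while at Hspb1 FLAG-SMN IP replicate 1, at 6.85, lies below every other array.

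The DNAJ co-chaperones were the largest group, with 45 genes, 25 positive and 20 negative, and a median difference of 0.049. By class the medians were 0.23 for 4 Dnaja genes, -0.037 for 13 Dnajb genes and 0.062 for 28 Dnajc genes; that of Dnajc was -0.061 without FLAG-SMN IP replicate 1. That of Dnaja was 0.090 without control IP replicate 1 and 0.37 without FLAG-SMN IP replicate 2. That of Dnajb was 0.011 under cyclic loess scaling and 0.065 without control IP replicate 2. Dnajb1 (HSP40), the inducible partner of cytosolic HSP70, had signals of 8.33, 7.48 and 7.83 in FLAG-SMN IP and 7.02 and 7.35 in control IP. Its groups did not overlap (difference 0.69, SE 0.28; 1.61-fold higher; limma adjusted p = 0.460), and the spread inside FLAG-SMN IP exceeded the difference. Dnajc4, a little-studied mitochondrial member, had 7.32, 7.75 and 7.76 in FLAG-SMN IP and 6.92 and 7.21 in control IP (difference 0.55, SE 0.22; adjusted p = 0.457). Dnaja1 had 9.27, 8.31 and 8.53 in FLAG-SMN IP and 9.26 and 9.34 in control IP (difference -0.60, SE 0.30; adjusted p = 0.580). Of the Dnaja1 values replicate 1 matched the controls and replicates 2 and 3 were lower, and the second probe set was also negative at -0.52. A probe set annotated to Dnaja1 together with Mir207 had the opposite sign, at 0.19, with overlapping groups.

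Dnajc6 encodes auxilin, the neuronal factor that recruits Hspa8 to clathrin coats. It had signals of 5.92, 5.14 and 5.56 in FLAG-SMN IP, against 6.23 and 6.61 in control IP. No FLAG-SMN array reached a control, and the means of 5.54 ± 0.39 (SD, n = 3) and 6.42 ± 0.27 (SD, n = 2) differed by -0.88 (SE 0.27; 1.84-fold lower; 95% confidence interval -1.53 to -0.24; limma adjusted p = 0.312). Dnajc16 had 7.41, 7.36 and 7.69 in FLAG-SMN IP and 7.86 and 8.14 in control IP (difference -0.51, SE 0.20; adjusted p = 0.435), also without overlap. Dnajc13, an endosomal protein also called RME-8, was read by 15 probe sets, of which 13 were negative and 2 positive, from -0.75 to 0.087. At its brightest it had 8.50, 8.32 and 8.46 in FLAG-SMN IP and 8.76 and 8.84 in control IP (difference -0.37, SE 0.17; adjusted p = 0.547). The probe sets of Dnajc13 share arrays and transcript and are not replicates. Dnaja4 (0.38) and Dnajc27 (0.32) lay above the controls on every FLAG-SMN array, with adjusted p of 0.601 and 0.662.

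A chosen list of chaperones linked to human neurological or muscle disease held genes on both sides of the control. The list is not complete, and Sil1, which lay above the control and is described below, is not on it. Of 9 listed genes, 3 differences were positive and 6 negative, with a median of -0.13; 0 lay above (3.25% of all genes did) and 2 (Hspb8 and Dnajc6) below the control (7.21% of all genes) at an unadjusted p under 0.05, and 0 passed the adjusted threshold. Dnajc5, the cysteine string protein of synaptic vesicles, had 8.52, 8.60 and 8.46 in FLAG-SMN IP and 8.58 and 8.60 in control IP. That is a difference of -0.067 with an interval of -0.47 to 0.34. Dnajb2, a neuronal DNAJ mutated in motor neuropathy, gave -0.18 (interval -0.71 to 0.35), and Bag3 gave -0.18 (adjusted p = 0.882). Dnajc12, linked to the folding of amino acid hydroxylases, gave 0.17 without overlap of the groups (adjusted p = 0.871). Dnajb6, a suppressor of protein aggregation mutated in a limb-girdle muscular dystrophy, had log2 signals of 7.00, 5.33 and 5.46 in FLAG-SMN IP, against 5.49 and 5.47 in control IP. Only FLAG-SMN IP replicate 1 was high, and without it the difference was -0.082, against 0.45 with it (adjusted p = 0.890). The brighter probe sets that Dnajb6 shares with Gm4247 were all negative, from -0.43 to -0.031.

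The ER list held 15 genes, all measured, with a median of 0.11, 11 positive and 4 negative; 2 lay above (Sil1 and Pdia4, beside 3.25% of all genes) and 1 below (Dnajb9, beside 7.21%) the control at an unadjusted p under 0.05 and 0 passed the adjusted threshold. The median was -0.14 without control IP replicate 1 and 0.42 without control IP replicate 2, as replicate 1 lay 0.51 below replicate 2 at the list's median. Among the chaperone family members, 3 that are on this list carry the ER stress element in their RefSeq promoter window, searched as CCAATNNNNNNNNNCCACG on both strands, a pattern that begins with a CCAAT box. It was found at 4.23% of the 71 chaperone genes, against 0.137% of all genes. The sequences are shown to set side by side genes that carry 1 motif: Hspa5 at chr2:34772017-34772051 on the plus strand, Hsp90b1 at chr10:86705630-86705664 on the minus strand, with another match in the opposite orientation at chr10:86705525-86705559, and Dnajc3 at chr14:118937819-118937853 on the plus strand. Capitals mark the matches.
Hspa5: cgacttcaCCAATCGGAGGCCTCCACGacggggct
Hsp90b1: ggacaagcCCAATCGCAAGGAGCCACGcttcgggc
Hsp90b1, other match: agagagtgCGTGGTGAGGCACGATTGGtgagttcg
Dnajc3: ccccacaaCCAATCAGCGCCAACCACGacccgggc

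Genes with this element differed by 0.026 (Hspa5), 0.31 (Hsp90b1) and 0.59 (Dnajc3), none past the threshold. Dnajc3, an HSP70 co-chaperone of the ER lumen, had signals of 7.77, 7.50 and 7.60 in FLAG-SMN IP and 6.66 and 7.40 in control IP (SE 0.26; limma adjusted p = 0.501). Its FLAG-SMN arrays were above both controls, but control IP replicate 2 came close to them. Dnajb9 (ERdj4), induced by the unfolded protein response, ran the other way, at 7.82, 7.10 and 6.79 in FLAG-SMN IP and 7.74 and 8.46 in control IP. FLAG-SMN IP replicate 1 overlapped the controls there, and the difference was -0.86 (SE 0.36; limma adjusted p = 0.474). Mitochondrial chaperones (14 genes, all measured) had a median of 0.15, with 9 positive and 5 negative and 1 above (Dnajc4, beside 3.25% of all genes) and 0 below the control (7.21% of all genes) at an unadjusted p under 0.05, and 0 past the adjusted threshold; the median was -0.025 without FLAG-SMN IP replicate 3 and 0.052 without control IP replicate 1.

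The list of co-chaperones and regulators, whose symbols are not those of members, gave 38 of 40 measured genes. It includes chaperones such as Trap1, Cryab and Hyou1. The median was 0.16, with 26 positive and 12 negative. The median was 0.032 without FLAG-SMN IP replicate 1, 0.090 without control IP replicate 1, 0.25 without FLAG-SMN IP replicate 2, 0.098 without FLAG-SMN IP replicate 3 and 0.27 without control IP replicate 2. At an unadjusted p under 0.05, 3 lay above the control (Sil1, Sugt1 and Hspbap1, beside 3.25% of all genes) and 5 below it (Ppid, Uri1, Ppp5c, Hspbp1 and Bag4, beside 7.21%), and 0 passed the adjusted threshold. Sil1, the nucleotide exchange factor of Hspa5 and the gene of Marinesco-Sjögren syndrome in humans, had signals of 9.01, 8.32 and 8.25 in FLAG-SMN IP and 7.51 and 7.35 in control IP. Every FLAG-SMN array was above both controls, a difference of 1.10 (SE 0.27; limma adjusted p = 0.230), and it ran from 0.85 to 1.24 with 1 array left out. Ppid, a cyclophilin of HSP90 complexes, had 7.95, 7.81 and 7.84 in FLAG-SMN IP against 8.61 and 8.48 in control IP (difference -0.68, SE 0.17; limma adjusted p = 0.238). Ppp5c, a phosphatase bound by HSP90, gave -0.70, and Uri1, a prefoldin-like scaffold, -0.69, with adjusted p of 0.386 and 0.360. Sugt1, an HSP90 co-chaperone, gave 0.60 and Hspbap1 0.44, with adjusted p of 0.423 and 0.434. Each of these co-chaperones kept its groups apart on all arrays.

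Within FLAG-SMN IP, replicate 1 lay above the mean of replicates 2 and 3 at 59 of 86 members, by a median of 0.15, against 0.027 over all genes. It was at least 1 log2 unit above them at 6 members (Dnajb6, Pfdn2, Dnajc8, Dnajc21, Cct8 and Dnajc7) and at least 1 below them at 3 (Dnajc15, Hspb1 and Hspb11), together 10.5% of members against 5.44% of all genes; these genes were named for this after their values were seen. Dnajc15, a mitochondrial import co-chaperone, was the widest, at 6.93, 8.66 and 8.74 in FLAG-SMN IP, against 7.95 and 7.88 in control IP. The control arrays were also unequal: control IP replicate 1 lay below replicate 2 by a median of 0.12 over the members and 0.29 over the 8 ring genes, but above it by 0.31 over prefoldin. The 5 members Cct8l1, Dnajb3, Dnajb7, Dnajc5b and Dnajc5g lay below the presumed control median on all 5 arrays, 77 lay above it on all 5, and 4 varied.

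**Figure D5:**
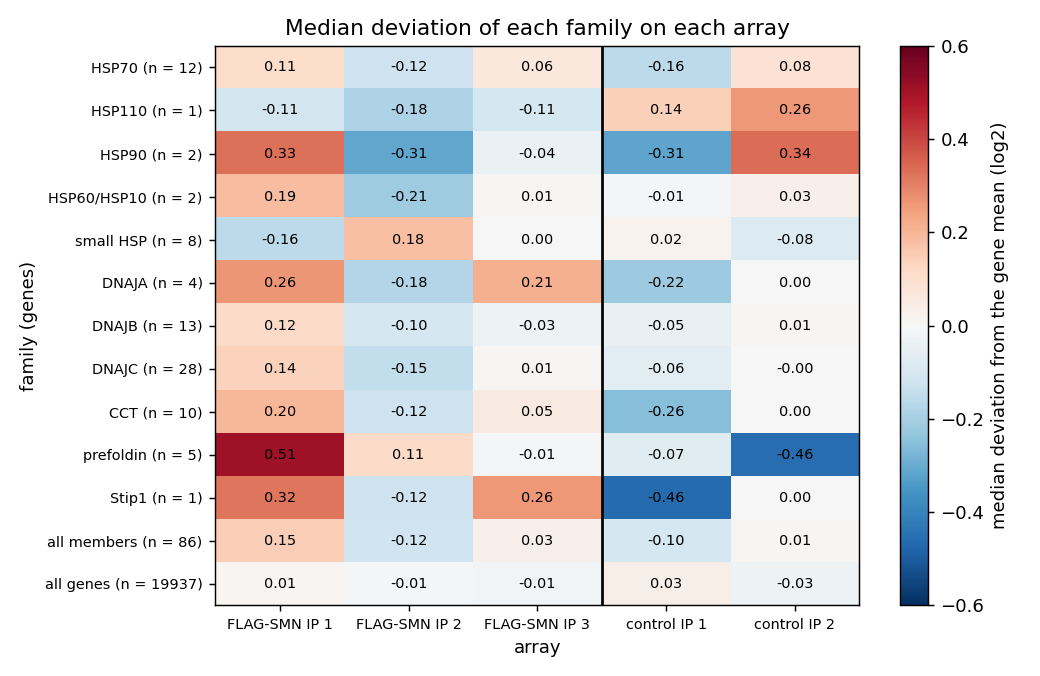
Each cell gives, for 1 family (vertical axis) on 1 array (horizontal axis), the median over its genes of the deviation from the gene's mean over the 5 arrays (log2), FLAG-SMN IP left of the line and control IP right of it. Prefoldin runs between 0.51 on FLAG-SMN IP replicate 1 and -0.46 on control IP replicate 2, while HSP90 deviates by 0.33 on FLAG-SMN IP replicate 1 and 0.34 on control IP replicate 2.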

How the data were processed

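RNA from anti-FLAG precipitates was hybridised to 5 single-colour Affymetrix arrays. Per the submitters' processing notes the authors used RMA, and the range of the deposited values is that of a log2 scale. The version of RMA is not given in the sources used here. RMA forces the arrays to a common distribution, so a general difference in recovered RNA is not visible. Groups and replicate numbers came from the titles. Of 34760 probe sets, the 6573 with IDs below the lowest annotated ID were presumed controls and left out; of the other 28187, 21640 carry 1 symbol, 1321 several and 5226 none, and names come from the platform annotation. All 108 member probe sets matched RefSeq by gene ID.

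All 28187 were tested with limma 3.58.1 (R 4.3.3; lmFit, eBayes, 2-sided, no block, Benjamini-Hochberg). Residual degrees of freedom were 3, prior ones 3.80, and the procedure was tested on simulated data. Lists are described by counts and medians. The members, lists, control rule and alternatives were chosen with earlier results of these data known. The text names all HSP, CCT, prefoldin and Stip1 members, the 5 DNAJ genes of smallest p in each direction, the disease-linked list, and the 3 co-chaperones of smallest p in each direction; other names are marked or illustrate a list. A planned description of protein motifs was not made. Figures used matplotlib 3.10.9 in Python 3.11.15.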

Additional observations from a re-analysis of the deposited data

How the results depend on the processing

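No member passed the adjusted threshold under any of the 13 alternatives, and none of the 62 named genes did; 15 of these genes changed sign under at least 1 alternative, in 30 of 801 values. The number of probe sets past the threshold on the whole array was 9; it was 0 with cyclic loess scaling, 41 when arrays were centred on their brighter probe sets, 86 with array weights, 0 with the replicate block, 0 over all probe sets of the table, and 0 to 350 when 1 array was left out, the highest without FLAG-SMN IP replicate 1. Members above the control at an unadjusted p under 0.05 numbered 5 as reported, 3 with brighter probe sets only, 3 with trend and robust moderation, 3 with the replicate block, 3 over all probe sets of the table, and 3 to 7 with 1 array left out; those below it numbered 6, and 3 to 8 with 1 array left out. The prefoldin median was 0.61 with the replicate block and 0.21 to 0.66 with 1 array left out. The mitochondrial median was -0.025 with the replicate block and -0.025 to 0.15 with 1 array left out, and that of the heat-inducible list -0.088 to 0.054. Centring on brighter probe sets turned the medians of HSP90 and of HSP60 with HSP10 to 0.017 and 0.018. Of all 86 members, 55 kept their sign in all 5 fits with 1 array left out, and the rest did not. The 11 members with an unadjusted p under 0.05 in the reported fit all kept their sign. Many of the named DNAJ genes were chosen for a small p. The cause of these changes was not tested. Deviations of same-numbered arrays from their group means correlated at 0.13 for number 1 and -0.20 for number 2. With 2 control arrays, the control deviations are mirror images of each other. These correlations therefore cannot show whether the arrays were paired. With 3 against 2 arrays the standard errors of the members' differences ran from 0.17 to 0.53 log2 units.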
